A study of Mus musculus with 80 samples.

Results

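The muscle nicotinic acetylcholine receptor is the ligand-gated cation channel on which motor nerves act at the neuromuscular junction. Its subunits were read from the deposited table by gene symbol: Chrna1 (alpha 1), Chrnb1 (beta 1), Chrnd (delta), Chrne (epsilon) and Chrng (gamma). Of these 5 genes, 4 were found among 10842, and Chrng was not analysed here. All 4 passed the filter on low values, which asked for 1.5 times the negative probe in 10% or more of the regions. Chrnb1 reached that ratio in 42 of 80 regions, Chrne in 26, Chrna1 in 20 and Chrnd in 15.

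In an innervated fibre the nuclei beneath the synapse transcribe the subunit genes, while electrical activity holds them low along the rest of the fibre. The alpha subunits carry most of the acetylcholine binding sites, the epsilon subunit marks the adult receptor, and the gamma subunit marks the foetal one that returns with denervation. The synaptic program is known to rest on E-boxes, which bind the myogenic basic helix-loop-helix factors, and on N-boxes, which bind Ets-family factors.

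The values came from sections of mouse tibialis anterior, a fast hindlimb muscle, measured with the GeoMx whole transcriptome assay, in which light releases barcoded probes from a chosen area of tissue. The control group held 6 animals with 41 regions, and the tau group held 6 animals with 39 regions. Tau animals expressed P301L tau, a human disease form of the microtubule protein tau, and both groups carried the strain label C57Bl/6 and the genotype label WT. The analysis name in the table header is BA TauAAV8 Skm, where AAV8 is a viral vector serotype. The sources used here do not give the promoter and target cells of such a vector, what control animals received or the ages of the animals. Labelled sex was 3 female and 3 male controls, and 4 female and 2 male tau animals. The labels sort the regions into nerve bundle (18 regions), surrounding artery (20), normal fibres (20) and fibres with central nuclei (22), all under the cell type label Myofibers. The sources used here do not say how regions were chosen. One tau animal had no region with central nuclei, so that type had 11 animals and the other types 12.

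Promoter stretches of 3 of the genes are shown because Chrna1 and Chrne varied together across these samples, as described further on, while Chrnb1 did not vary with Chrne. They are the 150 bases before the start site in the RefSeq promoter table for build GRCm38.p6, on the minus strand of chr2:73580339-73580488 for Chrna1, chr11:69795938-69796087 for Chrnb1 and chr11:70619195-70619344 for Chrne. The RefSeq gene spans reach 69795966 for Chrnb1 and 70619213 for Chrne, so the last bases of both these windows lie inside the annotated genes. Capitals mark E-boxes (CANNTG) and the N-box (CCGGAA), searched on both strands, with no overlap between the motifs.
Chrna1: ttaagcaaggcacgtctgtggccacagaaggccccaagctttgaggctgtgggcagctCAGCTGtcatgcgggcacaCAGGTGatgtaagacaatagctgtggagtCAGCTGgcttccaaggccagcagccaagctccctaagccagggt
Chrnb1: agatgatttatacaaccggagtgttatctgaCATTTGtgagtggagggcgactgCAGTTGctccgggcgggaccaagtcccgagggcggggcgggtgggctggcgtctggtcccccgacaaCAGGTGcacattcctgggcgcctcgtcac
Chrne: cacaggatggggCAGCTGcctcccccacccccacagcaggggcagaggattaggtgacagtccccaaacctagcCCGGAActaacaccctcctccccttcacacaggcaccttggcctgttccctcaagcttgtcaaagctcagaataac

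The Chrna1 window held 3 E-boxes, which began at -92, -73 and -44 from the start site, and 2 of them read CAGCTG. The Chrnb1 window held 3 E-boxes, at -119, -96 and -29, none with the letters CAGCTG. The one at -29 lies inside the annotated Chrnb1 gene span. The Chrne window held 1 E-box, CAGCTG at -138, and 1 N-box at -76. Among 32851 RefSeq windows of the same length, 47.7% held an E-box, 8.39% held CAGCTG and 9.23% held CCGGAA. These matches describe the letters only. Chrnd lies on chromosome 1 from 87190597 to 87200070 in the same RefSeq annotation.

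The samples were read in 3 scans named in the table header, with 2 animals of each group per scan. The negative probe, which matches no gene and so gives the background, stood at 25.8 ± 5.24 (SD, n = 27 regions) in scan 1, 46.1 ± 2.99 (n = 25) in scan 2 and 34.8 ± 5.16 (n = 28) in scan 3. Values were scaled to a common upper quartile (Q3), so the median gene stood at 1.92 times the negative probe in scan 1, 1.32 times in scan 2 and 1.61 times in scan 3. Counts were inferred from the step between values in each region, and are not measured reads. Inferred total counts per region ran from 145488 to 3356105. The subunits gave between 2 and 299 counts in a region, so counting error was large in the shallow ones.

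With both groups together, nerve bundle and surrounding artery regions carried signal above the background for all 4 subunits, and the other region types for fewer. Each gene's log2 ratio to the negative probe was tested against 0 with limma over animals, with Benjamini-Hochberg adjustment over 10842 genes. In nerve bundle regions 4 of 4 subunits were called higher than the negative probe, against 84.3% of all genes, and in surrounding artery regions 4 of 4, against 86.7%. The nerve bundle count was 2 in control animals alone. The surrounding artery count was 1 in control animals alone, 2 in tau animals alone and 2 without tau animal T7. With groups, animals or regions left out, genes called in either direction ran from 8194 to 9348 in nerve bundle. In surrounding artery they ran from 8655 to 9690. In fibres with central nuclei 2 of 4 were called, Chrna1 and Chrnb1, against 83.3% of genes. In normal fibres 1 of 4 was called, Chrnb1, against 83% of genes. The shares for nerve bundle and surrounding artery are near those of all genes and set the subunits apart from no other gene. In regions that hold many cells, fewer cells of a type and less RNA per cell cannot be told apart.

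Chrne, the adult epsilon subunit, had the widest range between region types. In normal fibres its ratio to the negative probe ran from 0.869 to 1.34 over the 12 animals with a median of 1.05, which limma did not separate from the negative probe (adjusted p = 0.24). In nerve bundle regions it ran from 0.936 to 7.26 with a median of 1.52, a mean log2 ratio of 0.91 ± 0.26 (SE, limma adjusted p = 0.0045). The highest nerve bundle animals stood far above all normal fibre values, while the lowest were within them. In surrounding artery regions the ratio ran from 0.882 to 2.97 with a median of 1.44 (log2 ratio 0.53 ± 0.15, limma adjusted p = 0.0043). In fibres with central nuclei it ran from 0.856 to 3.54 with a median of 1.11 and did not pass (limma adjusted p = 0.086).

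Chrna1, the acetylcholine-binding alpha subunit, followed the same order of region types at its 2 ends. Its ratio in normal fibres ran from 0.743 to 1.51 with a median of 1.12 (limma adjusted p = 0.20), and in nerve bundle regions from 0.625 to 3.59 with a median of 1.42 (log2 ratio 0.59 ± 0.17, limma adjusted p = 0.0049). Between these lay surrounding artery, 0.894 to 2.62 with a median of 1.16 (log2 ratio 0.29 ± 0.11, limma adjusted p = 0.026), and fibres with central nuclei, 0.842 to 2.23 with a median of 1.14 (log2 ratio 0.28 ± 0.10, limma adjusted p = 0.020). The animals of the 4 region types overlapped.

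Chrnd, the delta subunit that forms the second agonist site in the adult receptor, was near the background outside nerve bundle regions. Its median ratio was 0.996 in normal fibres (range 0.903 to 1.502), 1.10 in fibres with central nuclei (0.764 to 1.37) and 1.10 in surrounding artery regions (0.946 to 1.34). In nerve bundle regions it ran from 0.857 to 2.84 with a median of 1.33 (log2 ratio 0.54 ± 0.14, limma adjusted p = 0.0025). The surrounding artery call was a small one, a log2 ratio of 0.15 ± 0.06 (limma adjusted p = 0.024), with 11 of 12 animals above the negative probe.

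Chrnb1, the structural beta subunit, stood above the negative probe in every region type, at similar levels. Its median ratio was 1.47 in normal fibres (range 1.05 to 2.88), 1.42 in fibres with central nuclei (0.977 to 3.22), 1.56 in surrounding artery (1.06 to 3.30) and 1.39 in nerve bundle regions (1.03 to 2.81). The mean log2 ratios lay between 0.59 and 0.70, with SE of 0.12 to 0.13 (highest limma adjusted p = 0.00083).

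**Figure D1:**
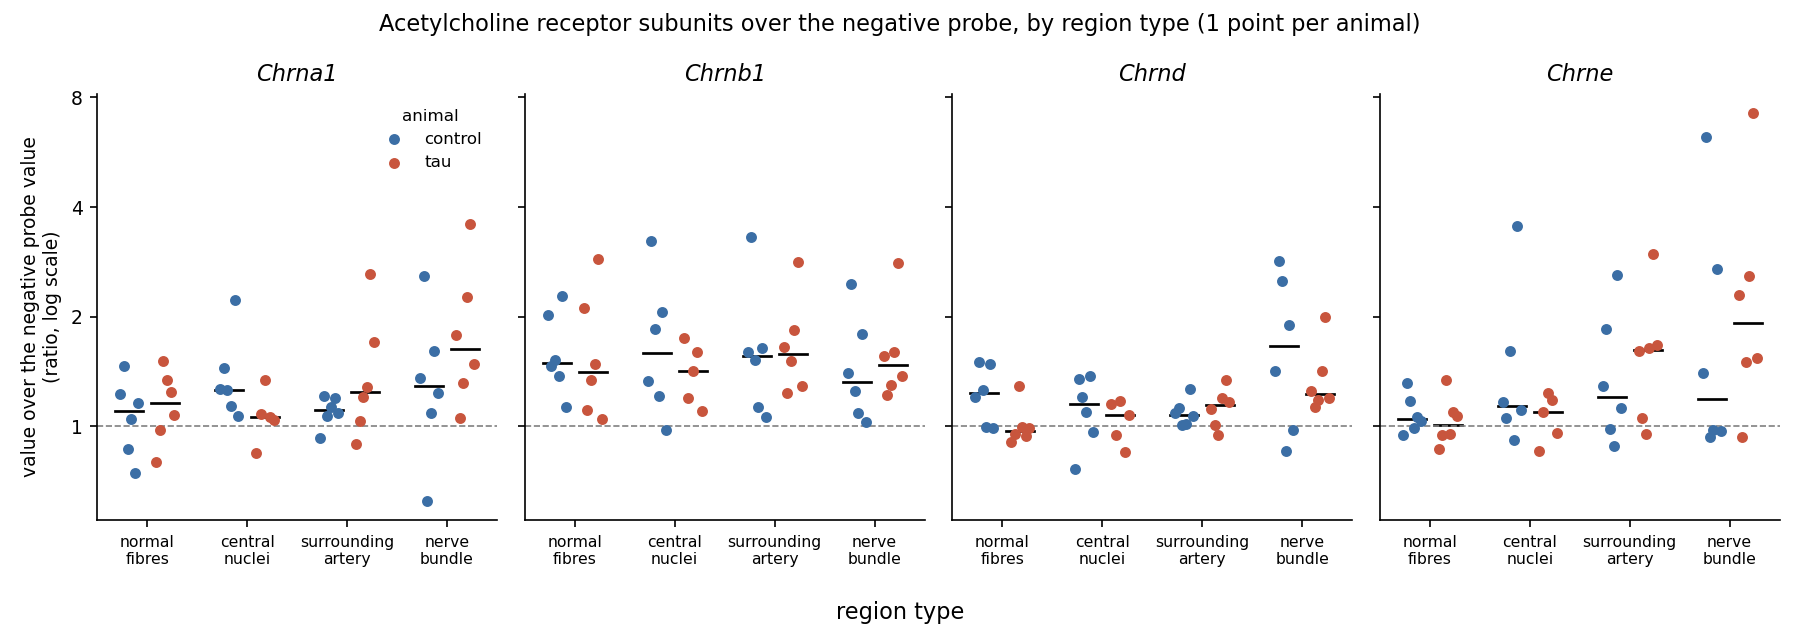
Ratio of each subunit to the negative probe value (log scale) by region type, 1 point per animal, control in blue and tau in red, with a black bar at each group's median and a dashed line at the negative probe. Chrne spreads up to 7.26 in nerve bundle regions and stays at or below 1.34 in normal fibres, while Chrnb1 sits at similar ratios in all 4 types.

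Differences between region types were tested within animals (limma, 10188 genes), and none of the subunits passed. Between nerve bundle and normal fibres, 0 of 4 were called, against 0.00982% of all genes, which is the single gene Dcn, a matrix proteoglycan gene named after its value was seen. At an unadjusted p under 0.05 the test gave 3 of the 4 subunits and 577 of all genes. Chrne was 0.75 ± 0.23 (SE) log2 units higher in nerve bundle than in normal fibres, higher in 8 of 12 animals, with differences from -0.77 to 2.72 (limma p = 0.0038, adjusted p = 0.79). Chrna1 was 0.39 ± 0.16 higher, in 10 of 12 animals (limma adjusted p = 0.79), and Chrnd 0.32 ± 0.10 higher, also in 10 of 12 (limma adjusted p = 0.79). Chrnb1 differed by -0.13 ± 0.10, with 6 of 12 animals on each side (limma adjusted p = 0.81). The median over all tested genes was -0.01.

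The nerve bundle excess of Chrne was uneven between scans. In scan 1 all 4 animals had more Chrne in nerve bundle than in normal fibres, by 1.80 ± 0.69 log2 units (SD), and in scan 3 it was 3 of 4 animals, by 0.38 ± 0.90. In scan 2, where the negative probe value was highest, 1 of 4 animals did, with a mean of 0.08 ± 0.27. Chrna1 showed 1.03 ± 0.49 in scan 1, 0.15 ± 0.18 in scan 2 and -0.01 ± 0.69 in scan 3. Chrnd showed 0.60 ± 0.40, 0.05 ± 0.19 and 0.32 ± 0.25. The part of the scan's background in these differences was not tested.

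No subunit passed in the other region contrasts either. Between surrounding artery and normal fibres 0 of 4 were called, against 0.353% of genes (36 genes, all higher). At an unadjusted p under 0.05 there were 1 subunit and 1587 genes (15.6%). That subunit was Chrne, at 0.37 ± 0.13 (limma adjusted p = 0.18) and higher in 9 of 12 animals. Between fibres with central nuclei, a sign of past regeneration, and normal fibres, 0 of 4 subunits and 0% of genes were called by limma, and 0 subunits and 289 genes had an unadjusted p under 0.05. The subunit differences there ran from -0.08 ± 0.08 (Chrnd) to 0.20 ± 0.13 (Chrne), with limma adjusted p = 0.998 for each. Between nerve bundle and surrounding artery, and between nerve bundle and fibres with central nuclei, 0 of 4 were called, each against 0% of genes. The first contrast had 2 subunits and 3.75% of genes at an unadjusted p under 0.05, and the second 1 subunit and 5.16% of genes. Chrnd was 0.39 ± 0.12 higher in nerve bundle than in surrounding artery (limma adjusted p = 0.99) and 0.34 ± 0.11 higher than in fibres with central nuclei (limma adjusted p = 0.81). Between surrounding artery and fibres with central nuclei 0 of 4 were called, against 0% of genes, with 0 subunits and 725 genes at an unadjusted p under 0.05.

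The label nerve bundle was checked against nerve markers. Of 11 Schwann cell and myelin genes, 7 were in the table and 5 were tested. Of these, 3 of 5 were higher in nerve bundle than in normal fibres and limma called 0 (2 at an unadjusted p under 0.05). Pmp22, a myelin protein gene, had a mean ratio to the negative probe of 2.16 in nerve bundle and 1.40 in normal fibres, a difference of 0.55 ± 0.12 (limma adjusted p = 0.56), while the Schwann cell regulator Sox10 stood at 1.05 and 0.998. The summed Q3 value of the 7 genes ran from 300.6 to 569 in control and from 380 to 826 in tau nerve bundle regions, against 312 to 527 and 304 to 588 in normal fibres. The medians were 485.3 in control and 575.1 in tau nerve bundle regions, against 372.8 and 442.2 in normal fibres. Of 7 motor axon transcripts 2 were in the table, with summed medians of 104.8 and 137.2 in nerve bundle, against 129.1 and 133.5. Those of 10 fast muscle fibre genes were 169500 and 136800, against 185000 and 137100. For smooth muscle, with 4 of 6 genes in the table, summed medians were 406.1 in control and 277.8 in tau nerve bundle regions. They were 237.4 and 253.7 in normal fibres, and 391.8 and 326.1 in surrounding artery. For 7 slow muscle fibre genes the medians were 325.9 and 353.1 in nerve bundle, against 338.8 and 372.8. The highest tau animal reached 1807 in nerve bundle and 1063 in normal fibres. The part of tissue make-up in the subunit differences, between region types or groups, was not tested.

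The high values sat in few regions. Chrne was at or above 2 times the negative probe in 8 of 18 nerve bundle, 4 of 20 surrounding artery, 2 of 22 central nuclei and 0 of 20 normal fibre regions. Chrna1 reached that level in 6, 2, 1 and 0 regions, and Chrnd in 3, 0, 1 and 0. Chrnb1 was spread otherwise, with 4 nerve bundle, 5 surrounding artery, 4 central nuclei and 6 normal fibre regions.

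The highest Chrne value of all was in the second nerve bundle region of tau animal T30, 301.5 on the Q3 scale or 11.96 times the negative probe, from 141 counts (95% exact Poisson interval 254 to 356 on the Q3 scale, covering counting error only). The same region held the highest Chrna1 value, 118 or 4.66 times the negative probe, from 55 counts (interval 88.6 to 153). The other nerve bundle region of that animal had Chrne at 101 (75 counts, interval 79.1 to 126). If the inferred counts hold, sections of bundles in 1 animal thus differed by more than counting error.

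Next by ratio to the negative probe came the second nerve bundle region of control animal C2, with Chrne at 168 or 8.64 times the negative probe (70 counts, interval 131 to 212). It also held the highest Chrnd value, 79.11 or 4.07 times (33 counts, interval 54.5 to 111), and the second Chrna1 ratio, 3.70. The third by this ratio was no nerve bundle but the first central nuclei region of control animal C30, with Chrne at 191 or 6.83 times (53 counts, interval 143 to 249) and Chrna1 at 101 or 3.61 times (28 counts). High Chrne and high Chrna1 thus met in the same regions, in both groups and in more than 1 region type, but all 3 regions belong to scan 1.

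At the other end, the nerve bundle region of control animal C20 had the lowest total count of all regions. Its Chrna1 value rested on 2 counts and its Chrne value on 3. Chrna1 also rested on 2 counts in a normal fibre region of control animal C30, at 0.322 times the negative probe. Ratios below 1 in such regions are within counting error of the background.

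**Figure D2:**
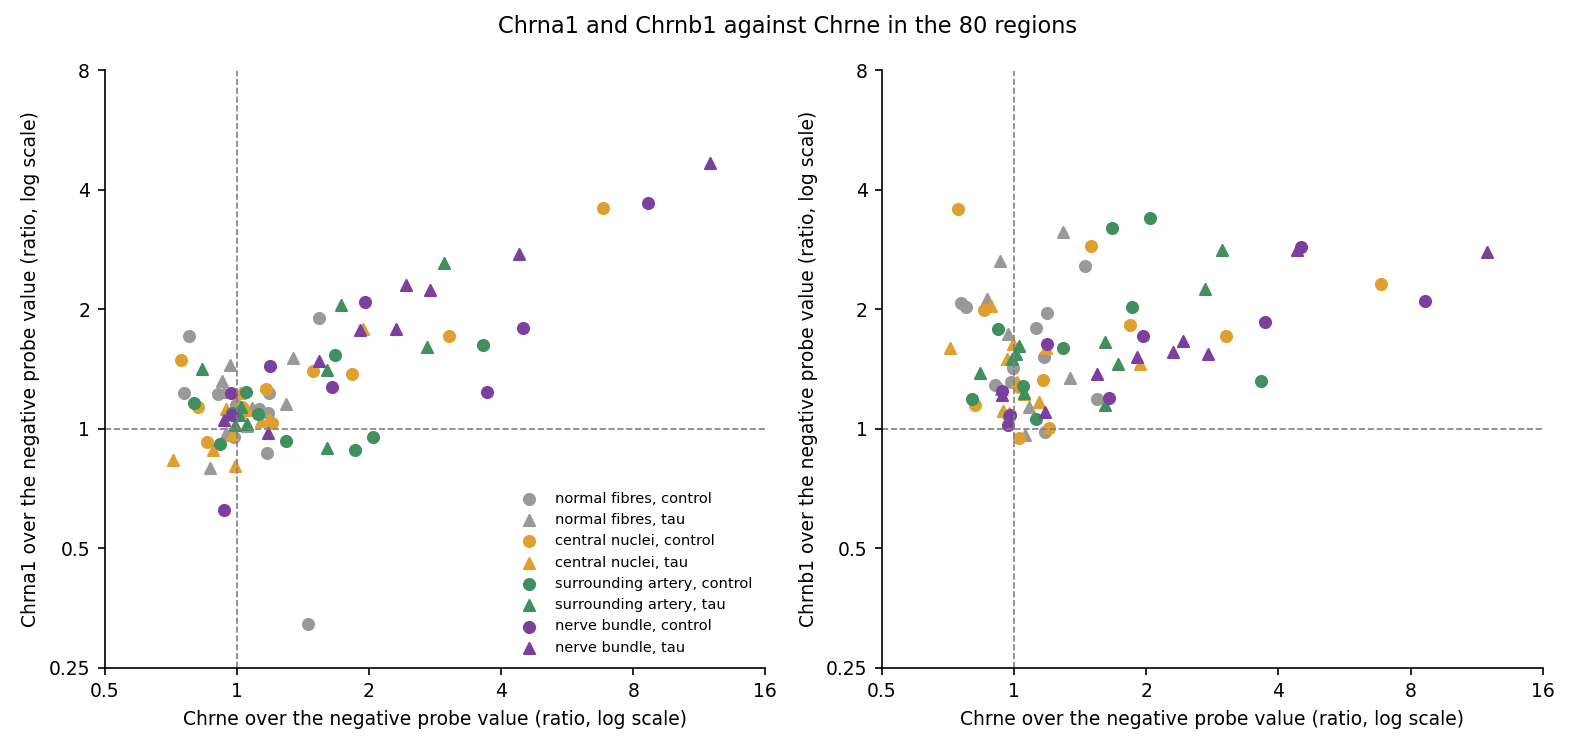
Ratios to the negative probe (log scales) in the 80 regions, Chrne on the x axis and Chrna1 (left) or Chrnb1 (right) on the y axis, with colour for region type and circles for control, triangles for tau. The regions with the highest Chrne, up to 11.96, also have the highest Chrna1, up to 4.66, while the highest Chrnb1 ratio, 3.58, lies in a region with Chrne below 1.

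Likeness between genes was described over 47 means of 1 region type in 1 animal, centred within scan. These points share animals and scans and are not independent. Chrna1 and Chrne had a Pearson r of 0.80, and for Chrna1 no other of the 10188 genes came higher. Chrnd and Chrne had an r of 0.48 and Chrna1 and Chrnd 0.33. Chrnb1 had an r of 0.32 with Chrna1, 0.07 with Chrne and -0.14 with Chrnd, against a median over all genes of 0.11 with Chrnb1. Chrnb1 thus varied with Chrna1 about as much as Chrnd did, and not with Chrne or Chrnd.

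The genes most like Chrne were Ufsp1 (r = 0.88), which encodes a protease of the ubiquitin-like modifier UFM1, Ache (0.86), the acetylcholinesterase that ends transmission at the synapse, and Chrna1 (0.80). Ache and Ufsp1 are neighbours in the RefSeq annotation of GRCm38.p6, Ache at chromosome 5 from 137288247 to 137294466 and Ufsp1 from 137294669 to 137295664. Both were highest in the same T30 nerve bundle region as Chrne and Chrna1, Ache at 15.3 and Ufsp1 at 14.2 times the negative probe. After Chrne, the genes most like Chrna1 were Rps6ka1 (r = 0.74), a ribosomal S6 kinase gene, and Ache (0.73). For Chrnd they were Prkar1a (r = 0.64), a regulatory subunit of protein kinase A, Ufsp1 (0.61) and Mrrf (0.60), a mitochondrial ribosome recycling factor. For Chrnb1 they were Rtn4 (r = 0.72), an endoplasmic reticulum protein gene, Ggps1 (0.71) and Dll1 (0.71), a Notch ligand, none of which was among the nearest genes of the other subunits.

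In tau animals 3 of the subunits had higher values than in controls, and none passed the test over all genes. Averaged over nerve bundle, surrounding artery and normal fibres, Q3 values of Chrna1 ran from 25.6 to 51.2 in controls with a median of 34.3, and from 35.3 to 62.2 in tau animals with a median of 53.0. Of the tau animals, 5 of 6 were above every control. With scan as a covariate the difference was 0.50 ± 0.13 log2 units (SE, limma p = 0.0013, adjusted p = 0.071). For Chrne the controls ran from 31.4 to 51.5 with a median of 44.5 and the tau animals from 48.1 to 68.0 with a median of 53.8. The upper controls lay within the tau range, and the difference was 0.39 ± 0.11 (limma adjusted p = 0.088).

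Chrnb1 controls ran from 43.6 to 56.0 with a median of 47.2, and tau animals from 54.2 to 66.9 with a median of 58.4. Only 1 control lay above the lowest tau animal, and the difference was 0.29 ± 0.08 (limma adjusted p = 0.095). Chrnd controls ran from 35.0 to 45.0 and tau animals from 32.2 to 52.4, groups that overlapped, with 2 tau animals above every control and a difference of 0.07 (limma adjusted p = 0.66). In this comparison limma called 0 of 4 subunits and 0% of the genes. At an unadjusted p under 0.05 there were 3 of 4 subunits and 2021 of 10188 genes, and the median over all tested genes was 0.09.

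The tau difference was widest in nerve bundle regions for Chrna1, Chrnb1 and Chrne. Chrna1 ran from 15.8 to 54.0 in controls with a median of 46.4, and from 52.5 to 86.1 in tau animals with a median of 64.9. There 4 of 6 tau animals were above every control, and the difference was 0.76 ± 0.24 (limma adjusted p = 0.33). Without the shallow C20 region, a choice made after seeing the data, it was 0.52 (limma adjusted p = 0.36). Chrne ran from 23.7 to 120 in controls with a median of 45.1 and from 46.6 to 174 in tau animals with a median of 75.2, wide groups that overlapped, with a difference of 0.68 ± 0.24 (limma adjusted p = 0.36). Over the negative probe these differences were 0.45 for Chrna1 (limma adjusted p = 0.32) and 0.36 for Chrne (limma adjusted p = 0.47).

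Chrnb1 in nerve bundle regions was the one subunit whose groups did not overlap on the Q3 scale. Controls ran from 31.6 to 50.7 with a median of 44.7 and tau animals from 52.3 to 67.4 with a median of 59.6. The difference was 0.47 ± 0.13 (limma adjusted p = 0.30), in a comparison where limma called 0% of genes. Of all tested genes, 0.275% (28 genes) had every tau animal above every control in these regions. Set over the negative probe of each region, the same animals overlapped, from 1.03 to 2.46 times in controls and from 1.22 to 2.81 times in tau animals. On that scale the difference was 0.14 (limma adjusted p = 0.60). Chrnd in nerve bundle regions ran from 40.1 to 63.3 in controls and from 45.2 to 56.1 in tau animals, with a difference of 0.08 (limma adjusted p = 0.80).

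Negative probe and depth differed between the groups in the same direction. In nerve bundle regions the log2 negative probe value was 4.90 ± 0.53 (SD, n = 6) in controls and 5.23 ± 0.36 (n = 6) in tau animals, and the log2 total count was 19.4 ± 1.51 and 20.6 ± 0.71. Within scans the tau animals' log2 negative probe value was higher by 0.52, 0.05 and 0.44. Over the negative probe, the mean of 3 region types differed between tau and control by 0.28 for Chrna1 (limma adjusted p = 0.32), 0.16 for Chrne (0.50), 0.06 for Chrnb1 (0.74) and -0.16 for Chrnd (0.34). The part of background and depth in the tau differences was not tested.

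Within scans, the Chrna1 difference over the mean of 3 region types was 0.46, 0.17 and 0.87 log2 units in scans 1, 2 and 3. For Chrne it was 0.18, 0.32 and 0.66, and for Chrnb1 0.38, 0.19 and 0.30. These 3 subunits were thus higher in tau animals in every scan on the Q3 scale. Over the same mean 72.3% of all tested genes were higher in tau animals, and the share higher in every scan was not computed. The log2 negative probe value over this mean was higher in tau animals too, by 0.28, 0.09 and 0.33. Chrnd differed by -0.12, 0.21 and 0.12. Over the negative probe Chrna1 remained positive in each scan, at 0.20, 0.09 and 0.56, while Chrne was at -0.10, 0.24 and 0.34 and Chrnb1 at 0.11, 0.10 and -0.03.

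In surrounding artery regions the tau differences were 0.51 for Chrna1, 0.28 for Chrnb1, 0.25 for Chrnd and 0.40 for Chrne (lowest limma adjusted p = 0.26), with 3 of 4 subunits and 1243 genes at an unadjusted p under 0.05. Over the negative probe they were 0.31, 0.07, 0.04 and 0.19 (lowest limma adjusted p = 0.46). On the Q3 scale in normal fibres they were 0.24, 0.12, -0.12 and 0.09 (lowest limma adjusted p = 0.51), with 0 subunits and 1385 genes at an unadjusted p under 0.05. In both types limma called 0 of 4 subunits and 0% of genes. In fibres with central nuclei, Chrna1 ran from 33.6 to 58.6 in the 6 controls, and the 5 tau animals had 28.1, 41.2, 47.6, 51.5 and 54.1. Chrne ran from 25.9 to 93.1 in the controls, and the tau animals had 28.6, 43.8, 46.0, 47.6 and 54.8. The groups overlapped, and Q3 differences were -0.04 for Chrna1, 0.14 for Chrnb1, 0.22 for Chrnd and -0.07 for Chrne. Limma called 0 of 4 subunits and 0% of genes (lowest subunit adjusted p = 0.33), with 0 subunits and 2098 genes at an unadjusted p under 0.05. Over the negative probe all 4 subunits had lower means in tau animals, in groups that overlapped. Mean log2 ratios were 0.44 ± 0.38 (SD) in controls and 0.09 ± 0.24 in tau animals for Chrna1, and 0.47 ± 0.72 and 0.08 ± 0.22 for Chrne. For Chrnb1 they were 0.71 and 0.48, and for Chrnd 0.14 and 0.04.

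**Figure D3:**
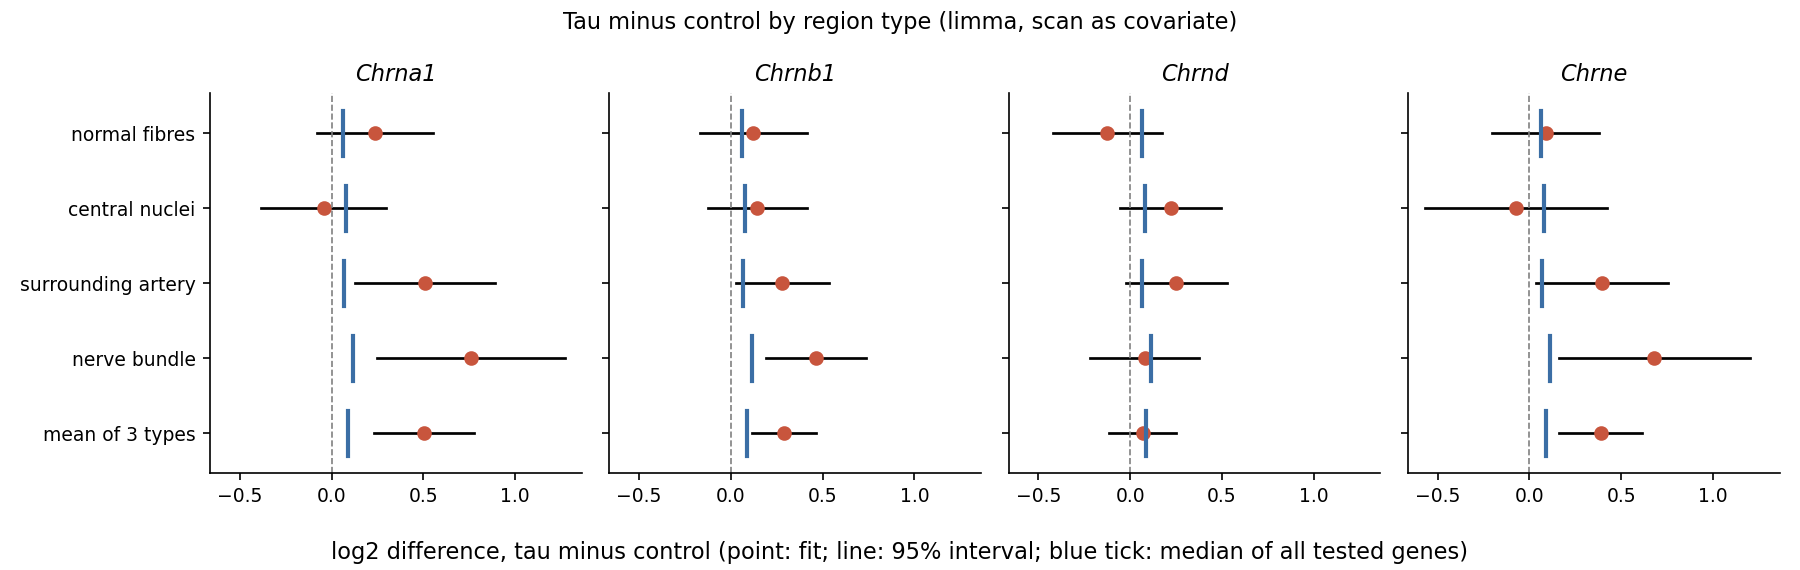
Difference between tau and control animals in log2 Q3 value for each subunit, by region type and over the mean of 3 types, with 95% intervals (limma, scan as covariate) and a blue tick at the median of all tested genes. The points for Chrna1 and Chrne lie highest in nerve bundle regions, at 0.76 and 0.68, and near 0 in fibres with central nuclei.

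Whether the tau difference itself depended on the region type was tested as an interaction within animals. Between nerve bundle and normal fibres the tau difference was larger by 0.52 ± 0.22 for Chrna1, 0.59 ± 0.28 for Chrne, 0.34 ± 0.19 for Chrnb1 and 0.20 ± 0.18 for Chrnd (lowest limma adjusted p = 0.78). Limma called 0 of 4 subunits and 0% of genes, and 1 subunit and 584 genes had an unadjusted p under 0.05. For surrounding artery against normal fibres the same values ran from 0.16 to 0.38 (lowest limma adjusted p = 0.84), and for central nuclei from -0.28 to 0.24 (limma adjusted p = 0.998). In both, limma called 0 of 4 subunits and 0% of genes, with 0 subunits and 585 and 294 genes at an unadjusted p under 0.05. A difference of the tau effect between region types was therefore not detected for any subunit.

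The scans themselves differed in subunit level (limma F test, with treatment in the model), with 2 of 4 subunits called against 71.6% of genes. Chrna1 had scan means of 36.9, 53.5 and 40.3 on the Q3 scale in scans 1, 2 and 3 (limma adjusted p = 0.018). Chrnd had 35.1, 47.4 and 42.1 (limma adjusted p = 0.0062), and its 4 animals of scan 1, between 32.2 and 38.2, were all below those of scan 2, between 43.1 and 52.4, as held for 44% of all genes. Chrne had 53.6, 49.8 and 42.1 (limma adjusted p = 0.074) and Chrnb1 54.0, 54.0 and 51.2 (limma adjusted p = 0.72). Over the negative probe scan 1 was highest for Chrna1 and Chrnd too, with mean ratios of 1.46, 1.16 and 1.19 for Chrna1 and of 1.40, 1.02 and 1.25 for Chrnd. Chrnb1 had 2.15, 1.17 and 1.52 and Chrne 2.13, 1.08 and 1.25, with scan 1 highest on both scales. Over the negative probe the F test called Chrnb1 (limma adjusted p = 0.00015), Chrnd and Chrne, and did not call Chrna1. The share of all genes called on that scale is not given here, so these calls are not read as particular to the subunits. Over all alternatives of the scan test, the genes called ran from 2721 to 7780.

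**Figure D4:**
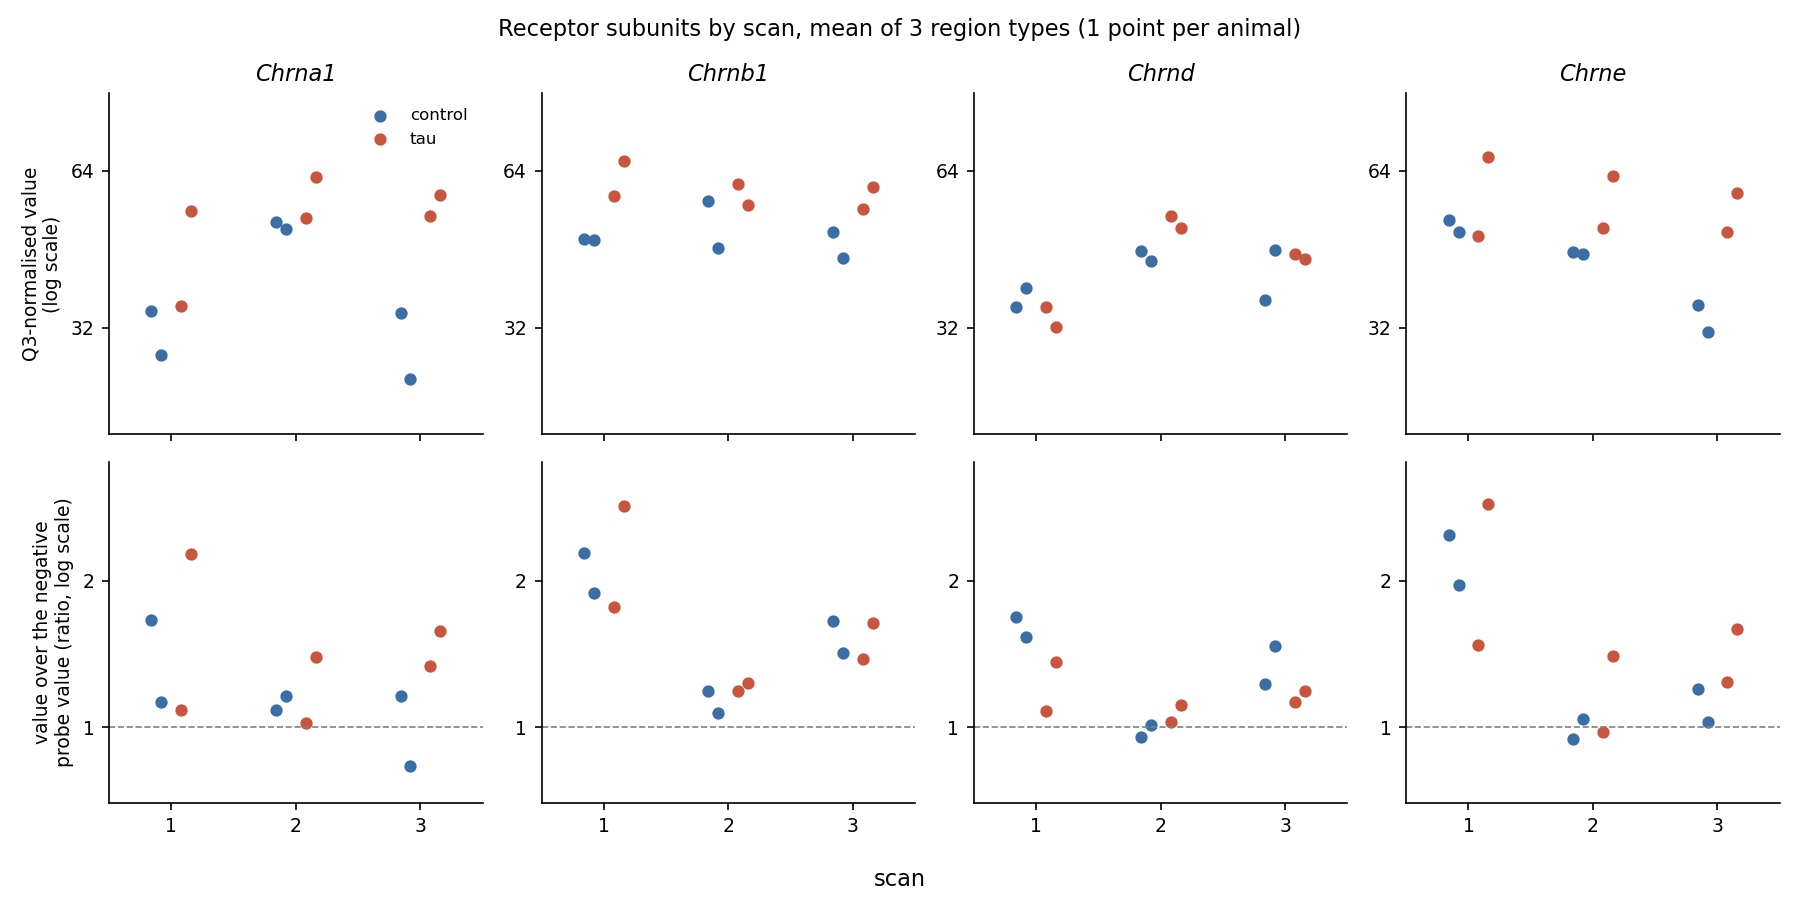
Subunit levels by scan over the mean of 3 region types, 1 point per animal, control in blue and tau in red: Q3 value (top, log scale) and ratio to the negative probe (bottom, log scale). On the Q3 scale Chrna1 and Chrnd are highest in scan 2, with means of 53.5 and 47.4, while over the negative probe all 4 subunits have their highest mean in scan 1.

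Other genes of the junction were taken from lists, chosen with earlier results of these data known. For comparison, over all 10188 tested genes 47.8% were higher in nerve bundle than in normal fibres and 5.66% had an unadjusted p under 0.05, with a median of -0.01. Over the mean of 3 region types 72.3% of all genes were higher in tau animals and 19.8% had an unadjusted p under 0.05, with a median of 0.09. In nerve bundle regions 69.9% were higher in tau animals, and in surrounding artery 52.4% were higher than in normal fibres. Of 28 genes of the neuromuscular junction, 20 were in the table and 18 were tested. Between nerve bundle and normal fibres 14 of 18 were higher in nerve bundle, with a median of 0.08, and 0 were called (3 at an unadjusted p under 0.05). The smallest p-values were those of Prkar1a, at 0.48 ± 0.11 (limma adjusted p = 0.66), and Ache, at 0.88 ± 0.23 (limma adjusted p = 0.79). Over the mean of 3 region types 15 of 18 were higher in tau animals, with a median of 0.21, and 0 were called (9 at an unadjusted p under 0.05). Utrn, the utrophin of the postsynaptic membrane, was at 0.39 ± 0.09, and Ache at 0.52 ± 0.12 (limma adjusted p = 0.064 for each). Within nerve bundle regions 14 of 18 were higher in tau animals and 0 were called, with Ache at 1.01 ± 0.23 (limma adjusted p = 0.30) and Musk, the kinase that clusters the receptor, at 0.54 ± 0.17 (limma adjusted p = 0.33). In surrounding artery against normal fibres 11 of 18 were higher and 0 were called.

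Of 19 myogenic and synaptic transcription regulators, 15 were in the table and 14 were tested. Over the mean of 3 region types 6 of 14 were higher in tau animals, with a median of -0.05, and 0 were called (4 at an unadjusted p under 0.05). Etv5, the Ets factor of synaptic nuclei, was at 0.39 ± 0.11 (limma adjusted p = 0.085), and Zbtb20, a zinc finger repressor, at -0.35 ± 0.11 (limma adjusted p = 0.11). In nerve bundle against normal fibres 12 of 14 were higher and 0 were called, with Etv5 at 0.41 ± 0.13 and Hdac5, a histone deacetylase, at 0.15 ± 0.10 (limma adjusted p = 0.79 and 0.80). Of 16 genes of the denervation response, 15 were in the table and 14 were tested. Over the mean of 3 region types 11 of 14 were higher in tau animals, with a median of 0.12, and 0 were called (4 at an unadjusted p under 0.05). Cdkn1a, a cell cycle inhibitor, was at 0.47 ± 0.10 (limma adjusted p = 0.064) and Gadd45a, a stress response gene, at 0.44 ± 0.14 (limma adjusted p = 0.12). In nerve bundle against normal fibres 6 of 14 were higher, 0 were called, and the smallest p-values were those of Dach2, a corepressor gene, at 0.23 ± 0.10 (limma adjusted p = 0.79) and Myh8, the perinatal myosin, at -0.14 ± 0.10 (limma adjusted p = 0.80). Neuronal nicotinic subunits and muscarinic receptors were not analysed here.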

How the data were processed

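The authors deposited Q3-normalised signal values on a linear scale, per the file headers. The sources used here name no aligner or counting software, and the submitters' processing notes name the build mm10. Low values are whole multiples of 1 step per region (at least 99.98% of values, tolerance 0.02), used only to infer counts and their intervals.

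Genes at 1.5 times the negative probe in at least 10% of regions were tested (10188, with 654 left out). Values were transformed as log2(value + 1), with no background subtracted here, and averaged over regions of 1 type per animal. Fold changes of genes near the negative probe are therefore understated, mainly by the background left in and slightly by the added 1. Tau was compared with control with scan as covariate in limma 3.58.1 (R 4.3.3, empirical Bayes with trend, Benjamini-Hochberg, threshold 0.05). Labelled sex was not a covariate, since Y-linked Eif2s3y and Ddx3y were higher in labelled female than in labelled male controls. Region types were compared as differences within an animal, the animal label giving the pairing. Group means in the text are geometric. The tests were checked on simulated data. Named genes were the subunits, the 2 list genes of smallest p in a comparison and the 3 genes most like each subunit. Members and lists were chosen with earlier results of these data known. P-values rest on 12 animals, on 11 where fibres with central nuclei enter, and on fewer where a group or an animal was left out. Figures were drawn with matplotlib 3.10.9.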

Additional observations from a re-analysis of the deposited data

Results flagged for a closer look

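Sets of 5 or 6 animals were formed for each subunit and group, by region type and over the mean of 3 region types. Of these 40 sets, 2 held an animal far from the others of its set. Chance alone would give about 5% of sets, and the 2 are no more than that share. The sets of the mean are not independent of those of its region types. Over the mean of 3 region types, tau animal T13 had a Chrna1 log2 value of 5.18 (35.3 on the Q3 scale), while the other 5 tau animals lay between 52.1 and 62.2. In nerve bundle regions, control animal C20 had a Chrna1 log2 value of 4.07 (15.8 on the Q3 scale, from 2 counts in its only nerve bundle region), while the other 5 controls lay between 35.4 and 54.0.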

How the results depend on the processing

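No subunit passed in any tau, region or interaction comparison under the alternatives that tested it: a pseudocount of 5, no filter, quantile normalization, values over the negative probe, labelled sex with or without scan, no replicate block, 1 group only, and single animals or regions left out. The filter of 2 times the negative probe in 50% of regions tested no subunit. Without the replicate block (the pairing by animal), 0 subunits and 0 genes were called in each of the 6 region comparisons, where surrounding artery against normal fibres had 36 genes with it. The alternatives that leave out single high or shallow regions were chosen after seeing the data.

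Called subunits moved elsewhere. Between scans 1 was called under quantile normalization, Chrne, while the stricter filter tested no subunit and so could call none. Over the negative probe Chrnb1, Chrnd and Chrne were called between scans and Chrna1 was not. In the main scan test 71.6% of all genes were called. Leaving out 1 animal gave 1 to 3 between scans, with 1 without C3 or without C40. In control animals alone, subunits called over the negative probe were 2 in normal fibres, 2 in nerve bundle and 1 in surrounding artery. In tau animals alone they were 1 in fibres with central nuclei and 2 in surrounding artery. Leaving out 1 animal gave 2 to 4 in surrounding artery, with 2 without T7. With groups, animals or regions left out, genes called over the negative probe ran from 8180 to 9462 in normal fibres. They ran from 8341 to 9427 in central nuclei, 8194 to 9348 in nerve bundle and 8655 to 9690 in surrounding artery.

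In the tau, region and scan comparisons, counts over all genes moved more. Tau against control over the mean of 3 region types had 0 genes, but 270 under the stricter filter, 193 without C3, 167 without T30 and 372 without T7. In fibres with central nuclei it had 0, but 448 under the stricter filter, 235 under quantile normalization, 1393 over the negative probe, 107 without C3 and 373 without T7. In surrounding artery it reached 92 and in normal fibres 51. Surrounding artery against normal fibres had 0 to 270, nerve bundle against normal fibres 0 to 3, and the scans 2721 to 7780.

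Small log2 differences changed sign, and the cause was not tested. Under quantile normalization tau minus control was -0.034 for Chrne in normal fibres, -0.023 for Chrnd in nerve bundle and -0.051 for Chrnd over the mean of 3 types. Chrnb1 in central nuclei minus normal fibres was then -0.008, and Chrnd in surrounding artery minus central nuclei 0.004. Over the negative probe tau minus control was -0.028 (Chrnb1) and -0.063 (Chrne) in normal fibres, -0.132 (Chrnb1) and -0.051 (Chrnd) in central nuclei, and for Chrnd -0.252 in nerve bundle and -0.164 over the mean of 3 types. On that scale Chrnb1 in surrounding artery was 0.046 from normal fibres and 0.017 from central nuclei, and Chrnd 0.024 from central nuclei. With labelled sex and no scan, tau minus control in central nuclei was 0.011 for Chrna1 and 0.004 for Chrne. Without the first central nuclei region of C30 these were 0.053 and 0.056, Chrnb1 in central nuclei minus normal fibres -0.003, and Chrnd in surrounding artery minus central nuclei 0.027.

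In control animals alone Chrna1 was -0.048 in surrounding artery minus normal fibres and -0.174 in nerve bundle minus central nuclei, and Chrne -0.099 in surrounding artery minus central nuclei. In tau animals alone Chrnb1 was 0.045 in nerve bundle and 0.058 in surrounding artery minus normal fibres, and Chrnd 0.121 in surrounding artery. Minus normal fibres, central nuclei gave -0.050 for Chrna1 and 0.033 for Chrnd. Minus central nuclei, Chrnb1 was 0.018 in nerve bundle, and surrounding artery gave 0.112 (Chrna1), 0.041 (Chrnb1) and 0.016 (Chrnd).

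Leaving out 1 animal, tau minus control in normal fibres ran from -0.021 to 0.197 for Chrnb1 and from -0.005 to 0.145 for Chrne, and in central nuclei from -0.137 to 0.168 for Chrna1 and from -0.206 to 0.159 for Chrne. Chrnb1 ran from -0.095 to 0.021 in surrounding artery and from -0.090 to 0.067 in central nuclei minus normal fibres, and Chrnd from -0.072 to 0.026 in surrounding artery minus central nuclei. The interaction for central nuclei ran from -0.025 to 0.326 for Chrnb1 and from -0.375 to 0.025 for Chrne. The largest nerve bundle difference, that of Chrne, kept its sign, from 0.573 to 0.890. Depth limits these values, since subunits gave as few as 2 counts in a region.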
